A study of Peromyscus maniculatus with 16 samples.

Results

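The livers described here are the 5 from deer mice on high fat diet (HFD) without visible fat (NS) and the 6 from animals on regular chow (C), which together are 11 of the 16 livers in the study. They were chosen by the sample labels alone, namely high fat diet with steatosis given as No, against chow. Deer mice (Peromyscus maniculatus) are outbred rodents, so every animal has its own genotype. All 11 were males, and the diet was given for 28 weeks, with an age of 10 months at the end. In each group 1 animal belonged to the SM2 stock, a sonoriensis deer mouse (C animal 10876 and NS animal 10865), and the others, 5 in C and 4 in NS, to the bairdii stock BW. C animals 35998, 35972, 35975, 36001 and 36007 and NS animals 35963, 35987, 35930 and 35937 were the BW animals. The remaining 5 livers (S) came from the same diet with steatosis, from 2 males and 3 females, 1 of them SM2. Steatosis was read on stained sections, so NS means that fat was not seen there, not that none was stored.

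The liver takes up dietary fat, burns it, packs it into lipoproteins or stores it as triglyceride in droplets. Most of its RNA comes from hepatocytes, which also make fatty acids and cholesterol, turn cholesterol into bile acids, take amino acids apart and pass methyl groups from methionine to other molecules. Fatty acid desaturases and elongases convert the essential fatty acids of the diet into long polyunsaturated ones, and the transcription factor SREBP1, encoded by Srebf1, is known for raising both these enzymes and those of fatty acid synthesis. The question addressed was what the diet does to the transcriptome of livers in which it left no visible fat.

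Total counts per animal lay between 6374518 and 11349971 in C and between 7336900 and 9362184 in NS. Levels are given as CPM, read counts scaled to the library size with TMM normalization, which compare animals within a gene and not genes with each other. The nearest pair of C animals differed by a chi-square of 23.6 per degree of freedom and the nearest NS pair by 31.3, so no 2 libraries of the same group agreed within sampling noise. Over the 500 genes that varied most, the root mean square log2 difference between a C and an NS animal had a median of 1.73, against 1.47 between C animals and 1.43 between NS animals. Among BW animals these medians were 1.49, 1.42 and 1.37, and the nearest pair of all was C animal 36001 and NS animal 35930, at 1.20. The SM2 animals stood apart, with a median distance to the others of 2.58 for 10876 and 2.65 for 10865, against 1.40 to 1.70 for the BW animals. Hepatocyte markers were abundant in both groups, with 13 of 15 in the table and a summed level of 123600 to 149100 CPM in C and 114000 to 164100 CPM in NS. In whole liver, fewer cells of a type and less RNA per cell cannot be told apart.

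Across 12639 genes tested, 6 rose and 3 fell in NS by edgeR's quasi-likelihood test, where a call required a fold change of 2 or more besides an adjusted p-value under 0.1. These are 0.0475% and 0.0237% of the genes tested, and 0.0712% together. The genes that rose were Fads2 and Fads1, the desaturases of polyunsaturated fatty acids, Prss35, a serine protease-like secreted protein, and Zmym3, Gse1 and Lrfn3. The genes that fell were Gnmt, which uses up methyl groups from S-adenosylmethionine, Cox7a1, a subunit of cytochrome c oxidase, and Myrip, which links Rab27 vesicles to myosin. Dnmbp, a guanine nucleotide exchange factor for Cdc42, also passed the adjusted p-value (0.0635) but at a log2 fold change of 0.68. The median log2 fold change over all genes tested was 0.0075. At an unadjusted p-value under 0.05, 673 genes (5.32%) were higher and 375 (2.97%) lower in NS. This excess of higher genes rested on NS animal 10865, since 362 were higher and 341 lower without it, and 493 and 467 in the BW animals of NS and C. All 5 NS animals lay above all 6 C animals for 71 genes (0.562%) and below them for 54 genes (0.427%). The counts given for each gene list below stand beside these shares of all genes.

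**Figure D1:**
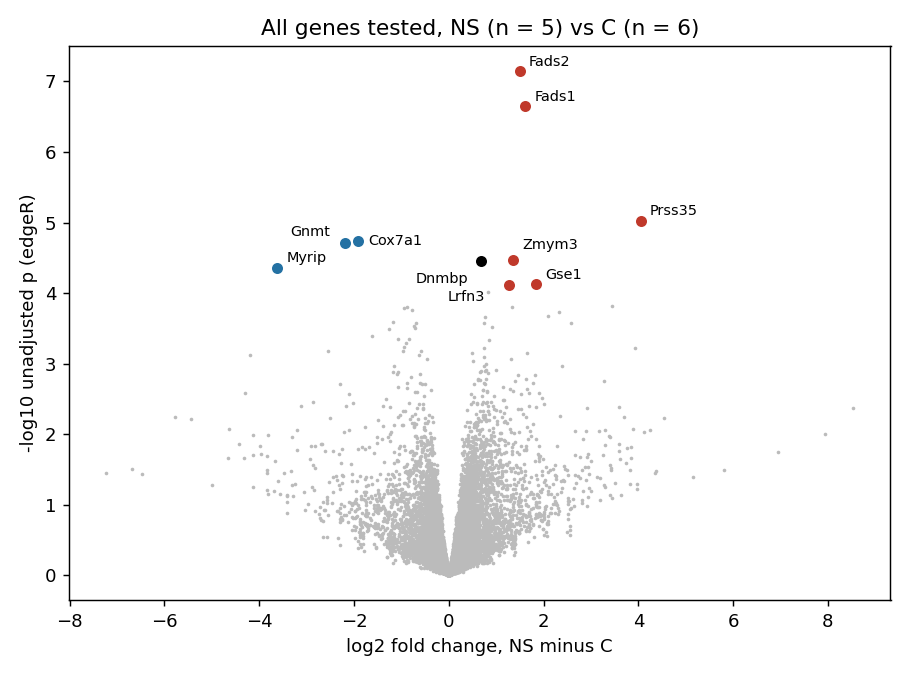
Each point is 1 of the 12639 genes tested, with the log2 fold change of NS minus C on the horizontal axis and minus log10 of the unadjusted edgeR p-value on the vertical axis. The 9 called genes are drawn in colour and named, 6 to the right and 3 to the left, and Dnmbp is named as the gene past the adjusted p-value with a fold change under 2.

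Fads2, the desaturase that starts the conversion of linoleic and alpha-linolenic acid, rose with the smallest adjusted p-value of all genes. Its level was 448 to 728 CPM in C, with a median of 565. It was 1808 CPM in NS animal 10865, 1653 in 35963, 1530 in 35987, 1293 in 35930 and 1866 in 35937. Every NS animal was thus higher than every C animal, and the log2 fold change was 1.504 (SE 0.17, adjusted p = 0.000901). Fads1, the desaturase of a later step of that conversion, stood at 153 to 258 CPM in C with a median of 173. In NS it was at 649, 521, 615, 383 and 645 CPM in 10865, 35963, 35987, 35930 and 35937. The groups did not overlap here either, and the log2 fold change was 1.61 (SE 0.20, adjusted p = 0.00142). For both genes an exact two-sided permutation test over all assignments of the 11 animals to groups gave p = 0.00216, the smallest it can give. In the RefSeq annotation of HU_Pman_BW_mat_3.1, another assembly than the one used for counting, Fads1 and Fads2 are direct neighbours with 0 genes between them.

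Of 17 genes tested in the list of fatty acid desaturases and elongases, Fads1 and Fads2 rose, beside 0.0475% of all genes. At an unadjusted p-value under 0.05, 4 were higher and 0 lower, beside 5.32% and 2.97% over all genes. The list median was 0.05. The other 2 of these 4 were the elongases that extend polyunsaturated chains. Elovl5 was at 302 to 442 CPM in C and at 427 to 854 CPM in NS, a log2 fold change of 0.79 (SE 0.20, adjusted p = 0.271). Elovl2 was at 206 to 326 CPM in C and 306 to 551 CPM in NS, a log2 fold change of 0.71 (SE 0.22, adjusted p = 0.433). In Elovl5 only NS animal 10865 and in Elovl2 only NS animal 35930 reached down into the range of C.

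Gnmt, the glycine N-methyltransferase of hepatocytes, fell in all NS animals. In C it ranged from 1556 to 4806 CPM with a median of 2373. In NS it was 1046 CPM in 10865, 617 in 35963, 383 in 35987, 482 in 35930 and 305 in 35937. The highest NS animal lay below the lowest C animal, and Gnmt fell by 2.19 on the log2 scale (SE 0.38, adjusted p = 0.0494). Both SM2 animals held the highest value of their own group, and the difference between them was -2.20.

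Gnmt belongs to a list of 30 tested genes of the methionine cycle, one-carbon metabolism and transsulfuration. Of these, 1 fell, beside 0.0237% of all genes. At an unadjusted p-value under 0.05, 11 (36.7%) were lower and 1 higher, beside 2.97% and 5.32% over all genes. The list median log2 fold change was -0.19, with 20 of 30 values negative, and -0.07 without C animal 10876. Sarcosine, the product of Gnmt, and dimethylglycine are both returned towards glycine by mitochondrial dehydrogenases. Dmgdh, which demethylates dimethylglycine, was at 304 to 618 CPM in C and at 173, 132, 298, 173 and 203 CPM in the 5 NS animals in the same order, without overlap (log2 fold change -1.26, SE 0.28, adjusted p = 0.151), and it was called with stock as a covariate, by DESeq2 and in the fit of NS and C animals only. Sardh, which demethylates sarcosine, had a median of 583 CPM in C and lay between 289 and 375 CPM in NS (log2 fold change -0.95, SE 0.23, adjusted p = 0.220). C animal 36001, at 297 CPM, was inside the range of NS, and without it Sardh was called. Aldh1l1, which oxidizes formyl tetrahydrofolate, was at 1511 to 2623 CPM in C and 839 to 1509 CPM in NS (log2 fold change -0.70, adjusted p = 0.433). Cth, which makes cysteine, and Mat1a, which makes S-adenosylmethionine, had log2 fold changes of -0.85 (adjusted p = 0.395) and -0.46 (adjusted p = 0.579). Sardh, Aldh1l1 and Cth were named here after their values were seen. The summed level of the list, with Gnmt itself included, was 13210 to 18640 CPM in C and 10560 to 12220 CPM in NS.

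Prss35 rose from a level near 0. It was counted 0 times in C animal 10876, and the C animals reached 6.77 CPM with a median of 2.72. NS animals stood at 30.5, 93.7, 60.0, 13.5 and 37.6 CPM in 10865, 35963, 35987, 35930 and 35937, each higher than every C animal. The fitted log2 fold change was 4.05 (SE 0.66, adjusted p = 0.0395). Zmym3, a zinc finger component of histone deacetylase complexes, was at 5.88 to 10.96 CPM in C and at 30.1, 15.05, 27.8, 13.7 and 20.2 CPM in NS, with a log2 fold change of 1.36 (SE 0.25, adjusted p = 0.0635). Lrfn3, a cell adhesion protein with leucine-rich repeats, stood at 5.99 to 11.5 CPM in C and at 27.1, 28.7, 17.7, 13.6 and 24.6 CPM in NS, with a log2 fold change of 1.28 (SE 0.25, adjusted p = 0.0978). Neither gene overlapped between the groups. Gse1 was the only called gene that did. It was at 2.26 to 6.88 CPM in C and at 19.7, 12.1, 20.6 and 16.8 CPM in 4 NS animals, but at 4.12 CPM in 35930 (log2 fold change 1.85, SE 0.36, adjusted p = 0.0978). Dnmbp stood at 16.97 to 22.2 CPM in C and 27.8 to 33.4 CPM in NS.

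Cox7a1, the heart and muscle isoform of a cytochrome c oxidase subunit, fell from 4.38 to 9.15 CPM in C to 1.77, 1.40, 1.28, 1.94 and 1.49 CPM in NS, without overlap (log2 fold change -1.92, SE 0.33, adjusted p = 0.0494). Among 67 respiratory chain and ATP synthase genes tested, Cox7a1 was the one that fell, and 0 were higher and 2 lower at an unadjusted p-value under 0.05. The log2 fold change was negative in 62 of the 67, and the list median was -0.20. Cox7a1 is also among 16 markers of skeletal muscle. Mb, Myh2, Myh4 and Myl1 of these were at 0 in all 11 livers, and the summed level of the list was 9.38 to 15.9 CPM in C and 5.83 to 11.1 CPM in NS, with Cox7a1 itself included. Cox7a1 and Lrfn3 lie near each other in HU_Pman_BW_mat_3.1, with 13 annotated genes between them, and moved in opposite directions.

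Myrip, the myosin and Rab interacting protein, fell from 4.23 to 16.1 CPM in C, with a median of 10.8, to 0.378, 1.02, 0.395, 1.70 and 0.814 CPM in NS. The log2 fold change was -3.62 (SE 0.67, adjusted p = 0.0694). Of the Rab and Rab effector genes, 0 were higher and 3 lower of 68 at an unadjusted p-value under 0.05, Myrip included, and the median was -0.02. Rab27a, the partner of Myrip on vesicles, had 0.771 ± 0.341 CPM (SD, n = 6) in C and 0.707 ± 0.228 CPM (SD, n = 5) in NS, a log2 fold change of -0.13 (adjusted p = 0.980).

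**Figure D2:**
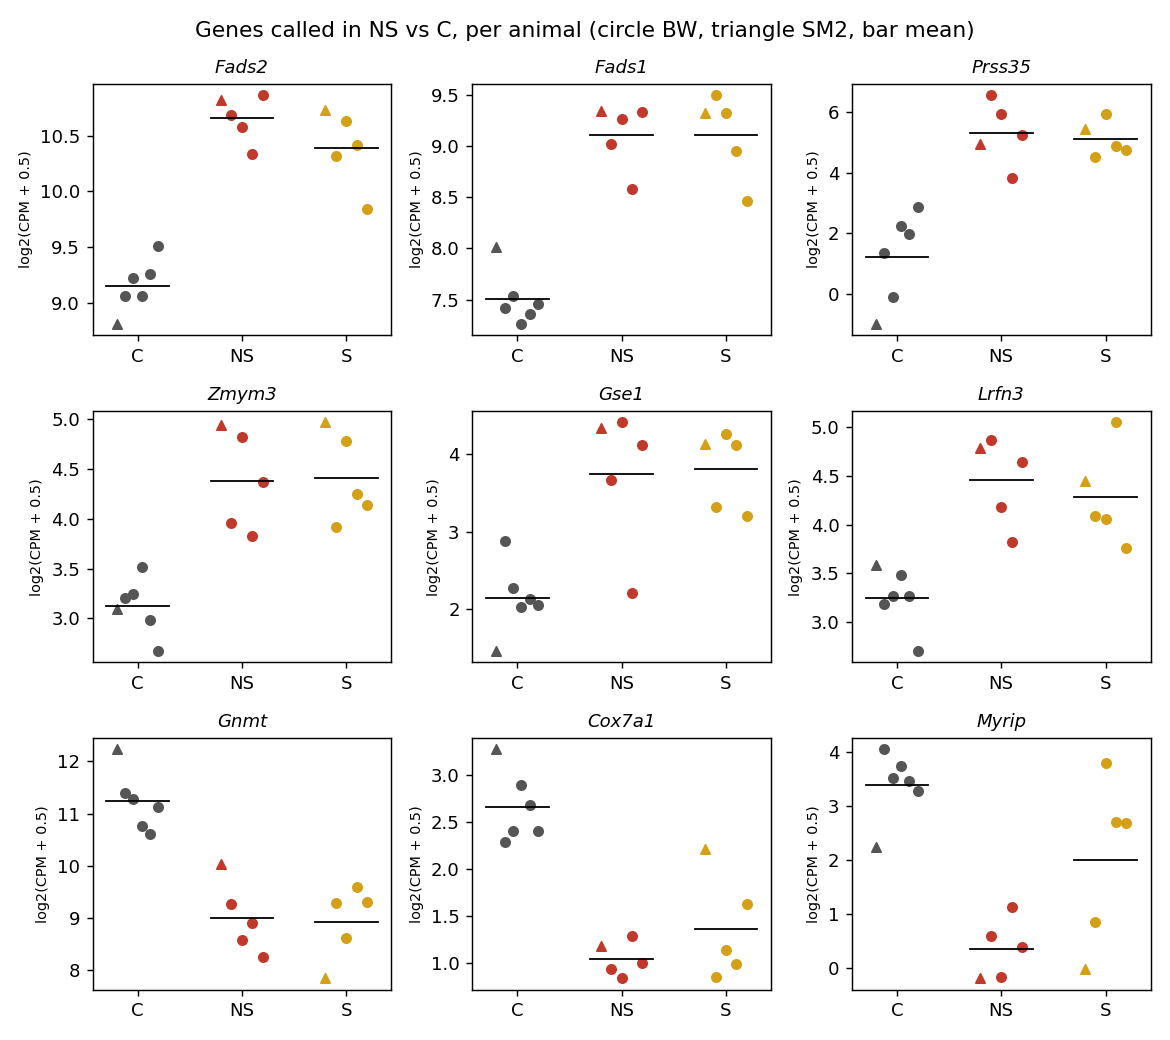
Levels of the 9 called genes in every animal, in CPM on a log2 axis after adding 0.5, with C, NS and S side by side. Circles are BW and triangles SM2 animals, the horizontal bars are group means on that scale, and Gse1 is the gene whose C and NS animals overlap.

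A single NS animal, 35930, lay nearest to the C mean in 8 of the 9 called genes, and 10865 did so in Gnmt. Without 35930, 15 genes rose and 14 fell, among them all 9. Without NS animal 35963 or 35987, 2 genes rose in each case, Fads2 and Fads1, and 0 fell, with 309 and 321 genes lower at an unadjusted p-value under 0.05 and 14 and 15 lower by DESeq2. Without 35937, 3 rose and 0 fell, with 332 genes lower at an unadjusted p-value under 0.05 and 15 by DESeq2. Leaving out C animal 35972 left 3 that rose and 1 that fell, and leaving out 36001 left 3 that rose and 4 that fell. Fads2 and Fads1 were called with each of the 11 animals left out in turn, at log2 fold changes of 1.44 to 1.58 and 1.56 to 1.73. Prss35 was called in 9 of the 11, Cox7a1 and Gnmt in 7, Zmym3, Gse1 and Myrip in 2 and Lrfn3 in 1, and none of them changed direction.

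Leaving out both SM2 animals and comparing 4 NS with 5 C animals of the BW stock, 6 genes rose (0.051% of 11775 tested) and 8 fell (0.0679%). They included Fads1, Fads2, Prss35, Gnmt, Cox7a1 and Myrip, while Zmym3 (adjusted p = 0.110), Lrfn3 (adjusted p = 0.102) and Gse1 (adjusted p = 0.197) missed the threshold at log2 fold changes of 1.19, 1.27 and 1.59. For Myrip the log2 fold change was -3.62 (SE 0.35, adjusted p = 0.00130), and the adjusted p-value was 0.0231 with the BW animals of S kept in the fit. The 8 genes called in BW animals alone were Cyp8b1, Ethe1, Dmgdh, Car14 and Gask1a, which fell, and Dapl1, Zfp541 and Ces4a, which rose. This fit also leaves out the S animals, and with the BW animals of all groups Dmgdh (adjusted p = 0.267), Ces4a (adjusted p = 0.215) and Gask1a (adjusted p = 0.305) were not called. Cyp8b1, the sterol hydroxylase that sets the share of cholic acid among bile acids, was at 214 to 1768 CPM in the BW animals of C. It was at 20.4, 5.43, 19.4 and 26.9 CPM in 35963, 35987, 35930 and 35937, a log2 fold change of -5.16 (SE 0.74, adjusted p = 0.0303). The SM2 pair went the other way, with 144 CPM in C animal 10876 and 248 CPM in NS animal 10865, and over all animals the log2 fold change was -3.11 (SE 0.94, adjusted p = 0.402). Ethe1, the sulfur dioxygenase of mitochondria, was at 45.2 to 191 CPM in all C animals and 21.8 to 36.8 CPM in all NS animals, and had a log2 fold change of -1.34 in BW animals (adjusted p = 0.0636).

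The SM2 pair is part of the fit of all animals, and where groups do not overlap the sign of its difference is fixed. That difference was 2.01 on the log2 scale for Fads2, 1.33 for Fads1, 5.95 for Prss35, 1.84 for Zmym3, 2.87 for Gse1, 1.20 for Lrfn3, -2.20 for Gnmt, -2.09 for Cox7a1 and -2.43 for Myrip. Of the 14 genes called in BW animals, a fit that did not use the SM2 pair, 12 had the same direction in it. Among these 12, Ces4a had 0 counts in 10876 and 1 in 10865, and Dapl1 had 6 and 8, too few to give a direction. With 1 SM2 animal a group the differences of the SM2 pair have no replicate. In a fit with stock and its interaction with group, added after the data were seen and resting on that pair, 5 genes (0.0396%) passed an adjusted p-value under 0.1 and 871 an unadjusted one under 0.05. That fit assumes that the lone SM2 animals vary like the others, and stock cannot be told apart from the single animals.

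**Figure D3:**
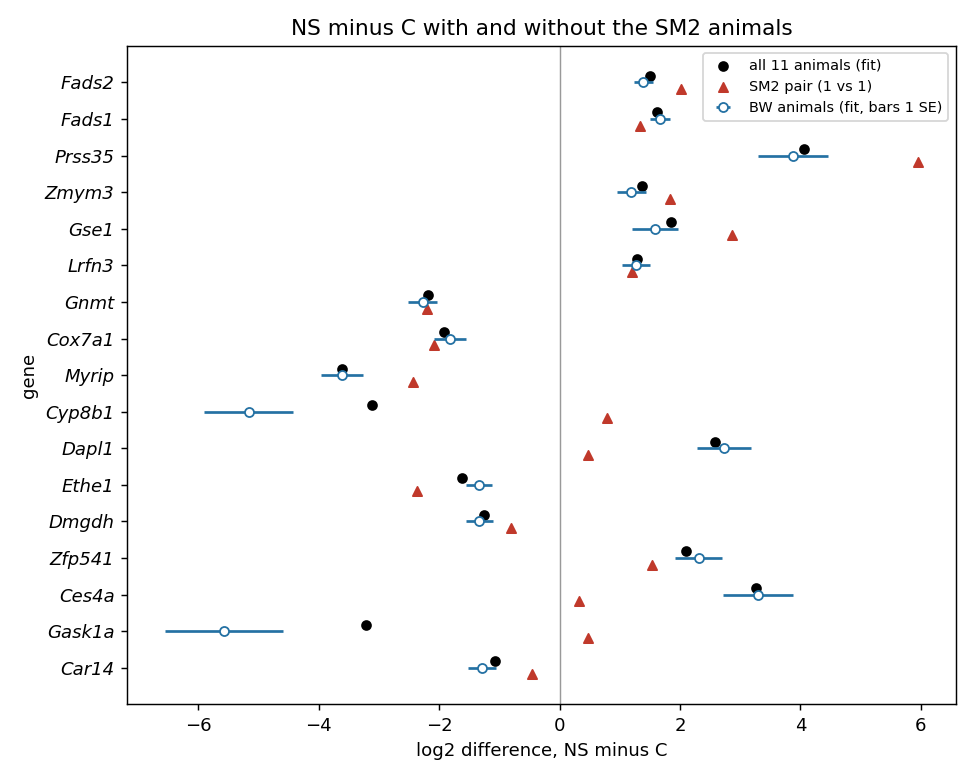
NS minus C on the log2 scale for the genes called in all animals or in BW animals alone. Filled circles are the fit of all animals, open circles the fit of the 9 BW animals with 1 SE on each side, and triangles the single SM2 pair, which falls on the opposite side of 0 for Cyp8b1 and Gask1a.

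Genes of fatty acid synthesis had higher values in NS, and none was called in the fit of all animals. Of 29 tested, 9 (31.0%) were higher and 1 lower at an unadjusted p-value under 0.05, beside 5.32% and 2.97% over all genes. A positive log2 fold change was seen in 23, and the median was 0.37. Srebf1 itself was at 42.4 to 264 CPM in C and at 1492, 711, 526, 237 and 762 CPM in NS animals 10865, 35963, 35987, 35930 and 35937, a log2 fold change of 2.32 (SE 0.49, adjusted p = 0.140). Only 35930 reached into the range of C, and Srebf1 was called without it, with stock as a covariate and by DESeq2. Me1, which supplies NADPH, lay at 105 to 524 CPM in C and 574 to 990 CPM in NS (log2 fold change 1.45, adjusted p = 0.299). Pklr, the liver pyruvate kinase, was at 73.3 to 237 CPM in C and 259 to 517 CPM in NS (log2 fold change 1.62, adjusted p = 0.315), and neither gene overlapped. By DESeq2 both were called, and Pklr also in males and in the fit of NS and C animals only. Acaca, which makes malonyl-CoA, had a log2 fold change of 0.55 (adjusted p = 0.786), and Fasn was not analysed here. Per animal, the list median relative to the C mean was between -0.39 and 0.23 in C and between 0.11 and 0.62 in NS.

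In cholesterol synthesis and uptake, 26 of 34 genes were on the positive side, with a median of 0.33. At an unadjusted p-value under 0.05, 3 (8.82%) were higher and 0 lower, beside 5.32% and 2.97% over all genes. Soat2, which esterifies cholesterol, was one of the 3 higher genes (log2 fold change 0.62, adjusted p = 0.315). C animal 35972 had the highest list median of the 11, at 0.65, while the other C animals lay between -0.30 and 0.11 and the NS animals between 0.20 and 0.61. Without 35972 the median of the log2 fold changes was 0.54.

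Lipoprotein genes had a median of 0.13 over 25 tested, with 3 higher and 1 lower at an unadjusted p-value under 0.05. Apoa4, an apolipoprotein of triglyceride-rich particles, was at 17.8 to 34.3 CPM in 5 C animals and at 212 CPM in C animal 36007. NS animals were at 520, 1646, 299, 431 and 179 CPM, so 35937 lay below 36007 (log2 fold change 3.45, SE 0.72, adjusted p = 0.136). Apoa1, the main protein of HDL, was at 5860 to 13750 CPM in C and 13650 to 26030 CPM in NS (log2 fold change 1.33, SE 0.28, adjusted p = 0.136), with only NS animal 10865 and C animal 35975 crossing. Both genes were called with stock as a covariate and by DESeq2, Apoa1 also in males, in NS and C animals only and without 35975, and Apoa4 also without 36007 or 35930. Apob and Mttp, which assemble VLDL, had log2 fold changes of -0.04 (adjusted p = 0.978) and 0.24 (adjusted p = 0.695).

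Genes of fatty acid uptake and lipid droplets had a median of -0.05 over 25 tested, with 2 higher and 2 lower at an unadjusted p-value under 0.05. Fabp1, the fatty acid binding protein of hepatocytes, had a median of 1861 CPM and a highest value of 4140 CPM in C. It was at 5387 to 7492 CPM in NS, without overlap. Its log2 fold change was 1.70 (SE 0.48, adjusted p = 0.350), and it was called by DESeq2. Plin2, which coats droplets and is known to follow their fat content, was at 113 to 1930 CPM in C and at 132, 619, 305, 451 and 285 CPM in NS (log2 fold change -1.005, SE 0.56, adjusted p = 0.657). Cidec, which enlarges droplets, had a log2 fold change of 0.51 (SE 0.28, adjusted p = 0.659) and Cd36, a fatty acid carrier, -0.24 (SE 0.27, adjusted p = 0.857). Triglyceride synthesis had 1 gene higher and 2 lower of 16, with a median of -0.03. Gpd1, which makes glycerol phosphate, was at 83.4 to 216 CPM in C and 242 to 399 CPM in NS (log2 fold change 0.97, adjusted p = 0.406), Gpat4 had -0.51 (adjusted p = 0.365) and Dgat2 0.15 (adjusted p = 0.939). For fatty acid oxidation and PPAR-alpha targets, 1 was higher and 3 lower of 44, with a median of -0.10. Cpt1a, the gate to mitochondrial oxidation, had 0.09 (adjusted p = 0.977).

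The list with the largest share of lower genes was amino acid catabolism and the urea cycle. Of 59 tested, 25 (42.4%) were lower and 1 higher at an unadjusted p-value under 0.05, beside 2.97% lower and 5.32% higher over all genes. A negative log2 fold change was seen in 49, and 0 were called. In 6 every NS animal lay below every C animal, beside 0.427% of all genes. The list median was -0.38. Aass, the first enzyme of lysine breakdown, was at 289 to 616 CPM in C and 194 to 301 CPM in NS, and only C animal 36001 overlapped (log2 fold change -0.95, SE 0.20, adjusted p = 0.136). It was called without 36001 and without NS animal 35930. Ass1, of the urea cycle, had a median of 5608 CPM in C and ranged from 1798 to 4413 CPM in NS (log2 fold change -0.96, SE 0.30, adjusted p = 0.408). Cps1, which starts that cycle, had -0.42 (SE 0.23, adjusted p = 0.656) and Tat, of tyrosine, -0.49 (SE 0.36, adjusted p = 0.756).

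Of the members without overlap, 5 are given next, named after their values were seen. They were Prodh of proline (log2 fold change -0.83), Gpt, an alanine aminotransferase (-0.89), Ivd of leucine (-0.57), and Pcca and Mmut of propionate (-0.46 and -0.38). Per animal, the median of the list relative to the C mean was -0.28 in 10865, -0.42 in 35963, -0.49 in 35987, -0.20 in 35930 and -0.34 in 35937. The C animals lay between -0.20 and 0.19. The ranges met, with C animal 36001 a little below NS animal 35930. In BW animals the list median was -0.33 with 26 genes lower and 1 higher at an unadjusted p-value under 0.05. Over the alternative fits the median ran from -0.44 to -0.33. The 13 hepatocyte markers had a median of -0.04 with 1 higher and 0 lower. Pericentral genes had 0 higher and 1 lower of 15 with a median of -0.21, and periportal genes 2 higher and 3 lower of 16 with a median of -0.21.

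**Figure D4:**
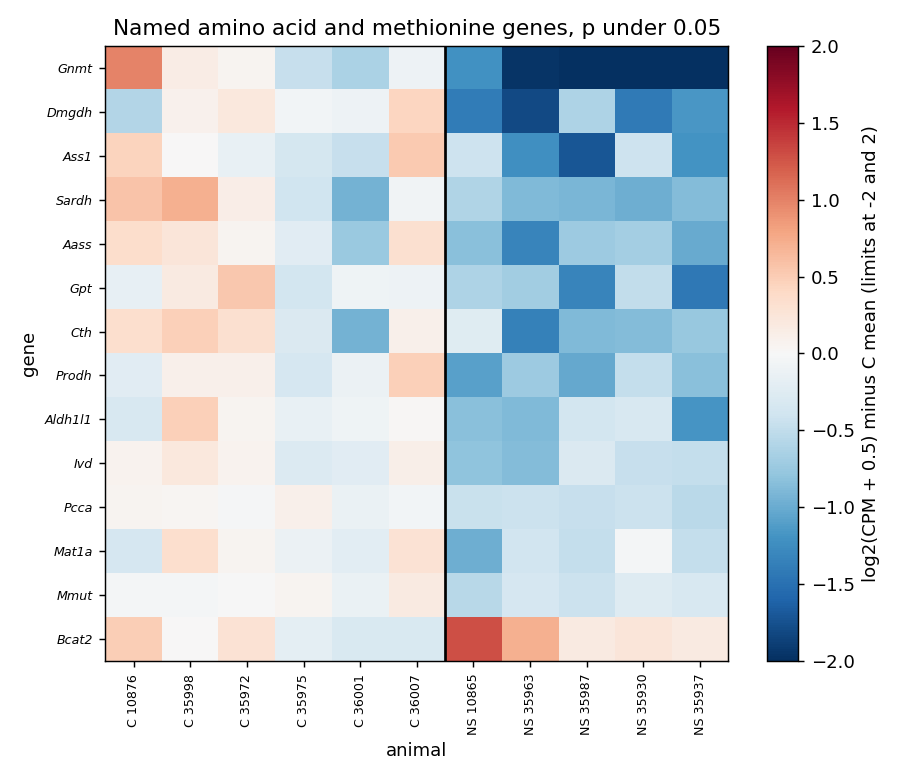
Log2 difference from the C mean in each of the 11 animals for the genes of amino acid catabolism and of methionine and one-carbon metabolism that the text names and that had an unadjusted p-value under 0.05, C on the left and NS on the right. Blue is lower and red higher than the C mean, the rows were chosen by that p-value, and most are blue in the NS columns while Bcat2 at the bottom is red.

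Bile acid synthesis and transport genes had a median of -0.35 over 29 tested, with 1 higher and 4 lower at an unadjusted p-value under 0.05 and 22 on the negative side. Besides Cyp8b1, Slc27a5, which joins bile acids to CoA, was at 941 to 1484 CPM in C and 529 to 906 CPM in NS, without overlap (log2 fold change -0.67, adjusted p = 0.402). Cyp7a1, the rate-limiting enzyme of bile acid synthesis, had -1.004 (SE 0.54, adjusted p = 0.650) and Abcb11, the bile salt export pump, -0.35 (adjusted p = 0.706). The glutathione, sulfo, esterase and dehydrogenase families had 8 lower and 2 higher of 47, with a median of -0.37 and 37 negative values. Ces1f, a carboxylesterase, was at 6.20 to 51.4 CPM in C and 0.678 to 11.2 CPM in NS (log2 fold change -2.55, SE 0.62, adjusted p = 0.223). Only uniquely mapped reads were counted, so the values of close Ces1 copies are uncertain. Aox2, an aldehyde oxidase, was at the floor of 3 counts or fewer in all C animals and at 0.271 to 0.630 CPM in NS, and no fold is given. Cytochrome P450 genes of drug and fatty acid metabolism had 1 higher and 3 lower of 28, with a median of -0.10, and Cyp2e1, which oxidizes ethanol, had -0.34 (adjusted p = 0.757). Of the 4 UDP-glucuronosyltransferases tested, 1 was lower and 0 higher, and the median was -1.30, which ran from -2.22 without NS animal 10865 to -0.25 in the BW animals of NS and C. Ugt2a2 was at 79.1 and 23.9 CPM in C animals 10876 and 35998 and at no more than 5.66 CPM in the other C animals and 1.64 CPM in NS (log2 fold change -4.20, SE 1.03, adjusted p = 0.228). Ugt2a3 was at 363 to 904 CPM in C and 102 to 764 CPM in NS (log2 fold change -0.38, SE 0.39, adjusted p = 0.843).

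Genes of glucose metabolism had a median of -0.02 over 34 tested, with 3 higher and 1 lower at an unadjusted p-value under 0.05. Pck1 and G6pc, of gluconeogenesis, had -0.37 (adjusted p = 0.876) and -0.28 (adjusted p = 0.912). Pck1 was at 3155 to 3835 CPM in C but ran from 582 CPM in 10865 to 4963 CPM in 35937 in NS. Circadian clock genes had a median of 0.12 with 1 higher and 0 lower of 25, and metabolic nuclear receptors 0.18 with 1 higher and 0 lower of 26. The higher genes were Per2 (1.08, adjusted p = 0.580) and the retinoic acid receptor Rara (0.82, adjusted p = 0.441). Growth hormone and insulin-like growth factor genes had 0 of 28 past that limit and a median of -0.11. Igfbp1, which insulin is known to lower, was at 211 to 2945 CPM in C and 75.9 to 1447 CPM in NS (log2 fold change -1.62, SE 0.77, adjusted p = 0.596). Hepatic iron genes had a median of -0.02 with 1 higher of 16, which was Hfe (0.34, adjusted p = 0.594). The Slc17 transporters had 1 higher and 2 lower of 7 and a median of -0.18, with Slc17a1, a phosphate and urate transporter, at -1.63. Coagulation factors had 1 higher of 23, F11 (0.86, adjusted p = 0.594), and a median of -0.01. NRF2 targets had 2 higher and 2 lower of 26, with a median of -0.24, and the unfolded protein response 0 of 37 past that limit, with a median of -0.18. Hspa5, its chaperone, had -0.15 (adjusted p = 0.919).

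The counts for genes of inflammation stand beside 5.32% higher and 2.97% lower over all genes at an unadjusted p-value under 0.05. None of the 12 cytokines and chemokines of the study's panel had an unadjusted p-value under 0.05, with a median log2 fold change of 0.06 and values from -0.52 for Il1b to 1.26 for Cx3cr1. Ccl2 was at 0.273 ± 0.243 CPM (SD, n = 6) in C and 0.274 ± 0.185 CPM (SD, n = 5) in NS, and Cxcl10 at 1.48 ± 1.15 CPM (SD, n = 6) and 1.08 ± 0.584 CPM (SD, n = 5). The panel's summed level was 109 to 177 CPM in C and 111 to 217 CPM in NS. Interferon response genes had 3 higher and 1 lower of 38, with a median of 0.13. Oasl2, an antiviral gene, was at 0.277 to 1.72 CPM in C and 1.26 to 5.13 CPM in NS (log2 fold change 1.85, SE 0.56, adjusted p = 0.402). Kupffer cell and macrophage markers had 0 of 20 past the limit and a median of -0.02, neutrophil and monocyte genes 0 of 16 and 0.02, and T, B and NK cell markers 1 higher of 32 and 0.10. The summed level of the Kupffer list was 454 to 792 CPM in C and 368 to 792 CPM in NS, with Clec4f at -0.25 (adjusted p = 0.876) and 0 of 20 markers at 0 in all 11. Among acute-phase proteins, 1 of 23 was higher, and the median was 0.08. It was Crp, at 162 to 259 CPM in C and at 318, 541, 269, 396 and 299 CPM in NS, without overlap (log2 fold change 0.81, SE 0.24, adjusted p = 0.395).

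Mitosis genes had 4 higher and 0 lower of 44 at an unadjusted p-value under 0.05, with a median of -0.03, and DNA replication genes 1 higher and 1 lower of 44, with a median of 0.09. Incenp of the chromosomal passenger complex had 1.67 (adjusted p = 0.511). Tpx2, of the spindle, was at 29.8 CPM in NS animal 10865 and at 1.22 to 2.37 CPM in the other NS animals, against 0.854 to 3.05 CPM in C. Its log2 fold change was 2.28 (adjusted p = 0.513) with and 0.27 without the SM2 animals. Cdk1 and Top2a, the kinase and topoisomerase of mitosis, had -0.55 (adjusted p = 0.876) and -0.43 (adjusted p = 0.946). Cell death genes had 6 higher (21.4%) and 0 lower of 28, beside 5.32% and 2.97% over all genes. Their median was 0.30, with 21 positive values, and 0.16 without NS animal 35987. Fadd, the adaptor of death receptors, and Bbc3, a p53 target, had 0.66 (adjusted p = 0.579) and 1.502 (adjusted p = 0.591), and Bax 0.39 (adjusted p = 0.614).

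Markers of other cells that a liver piece can hold were given the same treatment. Stellate and matrix genes had 4 lower and 0 higher of 38, with a median of -0.19, and sinusoidal endothelial genes 2 lower of 23 and -0.30. In the BW animals of NS and C these medians were -0.04 and -0.15. Timp2 and Dcn, matrix genes, had -0.65 (adjusted p = 0.560) and -0.71 (adjusted p = 0.511), and Wnt2, the signal of central vein endothelium, was at 5.31 to 10.3 CPM in C and 0.504 to 4.25 CPM in NS without overlap (-1.27, adjusted p = 0.511). NS animal 10865 had the lowest endothelial median of all, at -1.33, and its summed endothelial level was 287 CPM, against 439 to 698 CPM in C. Bile duct markers had 1 higher and 2 lower of 19 with a median of 0.03. Of 12 adipocyte markers, Lep and Adrb3 were at 0 in all 11 livers, 6 were tested with a median of -0.14 and 1 was lower, Car3, which the liver makes too (-1.04, adjusted p = 0.433). Exocrine pancreas markers were near 0, with Cpa1, Cpb1, Clps, Pnlip and Sycn at 0 and a summed level of 2.30 to 7.94 CPM in the 11 animals, and 0 of the 3 tested passed the limit (median 0.02). Of the 7 skeletal muscle markers tested, 1 was lower, Cox7a1, and the median was 0.13. Red cell genes reached 1.72 to 5.81 CPM in C and 2.57 to 11.5 CPM in NS, and both that were tested were higher, Alas2 at 0.88 (adjusted p = 0.594) and Slc4a1, which was at the floor of 3 counts or fewer in C and gets no fold. Of 4 intestinal markers tested 1 was higher, Apoa4, which the liver also makes, and the others were near 0 (Vil1 at 0.0721 ± 0.0841 CPM (SD, n = 6) in C and 0.265 ± 0.372 CPM (SD, n = 5) in NS), and Sis, Cdx1 and Tff3 were at 0. Immediate-early genes, which respond to handling and time to freezing, had 1 higher and 1 lower of 22 with a median of -0.49, and per-animal medians from -0.83 to 0.95 in C and from -1.15 to 0.45 in NS. Ribosomal protein genes had 0 of 36 past the limit, 35 negative values and a median of -0.20. The part of these values in the results above was not tested.

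**Figure D5:**
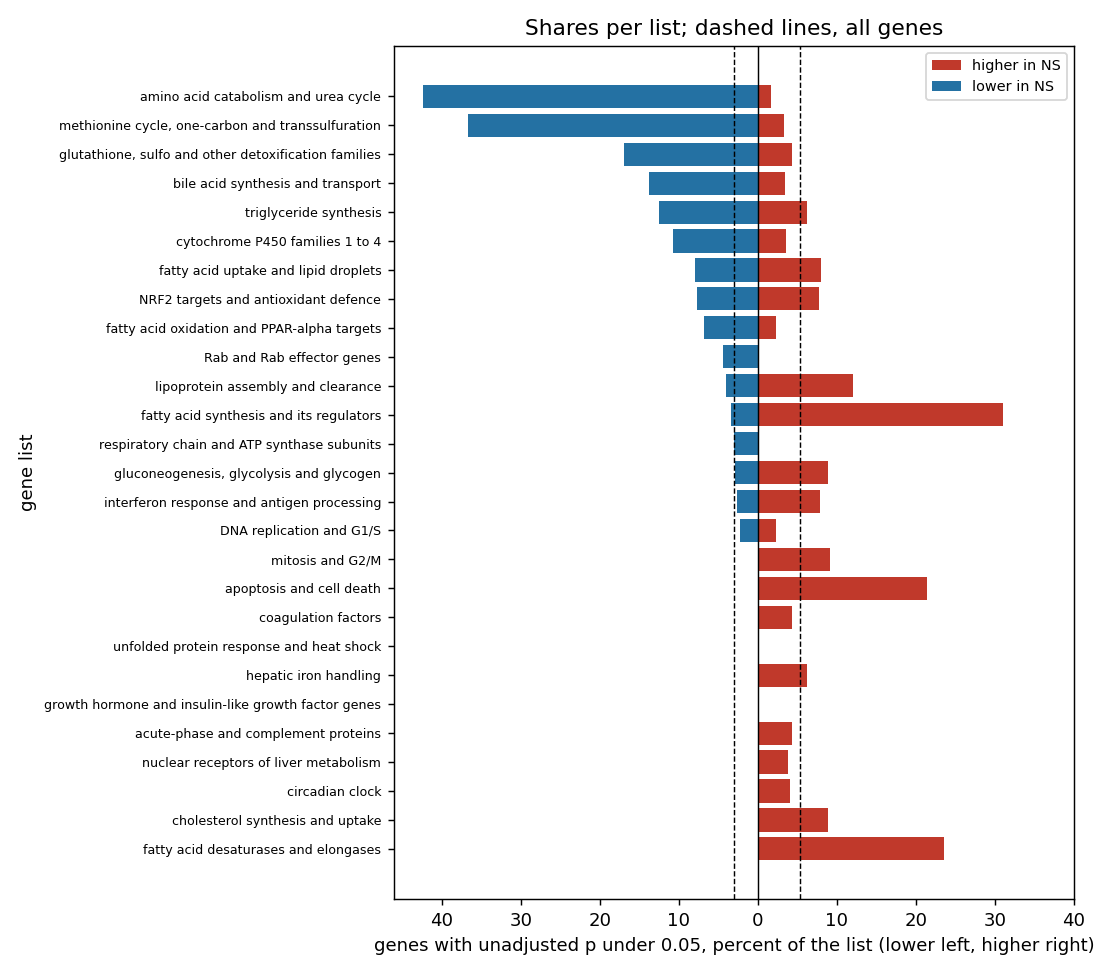
For the pathway and family lists with at least 15 genes tested, the share of genes with an unadjusted p-value under 0.05, higher in NS to the right and lower to the left, in percent of those tested. The dashed lines mark the shares over all genes, 5.32% and 2.97%, and amino acid catabolism, methionine metabolism and fatty acid synthesis reach furthest.

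Livers with steatosis on the same diet (S) were compared to see where the NS livers differed from them. Between S and NS, 1 of 12639 genes (0.00791%) was called, Ugt2a3, which was at 29.7 to 82.4 CPM in S and 102 to 764 CPM in NS (log2 fold change of S minus NS -3.48, SE 0.45, adjusted p = 0.00651), and an unadjusted p-value under 0.05 was reached by 1381 genes. Against the same C animals, S gave 513 called genes (4.06%). Of the 9 genes called in NS vs C, 0 differed between S and NS at an adjusted p-value under 0.1, which does not show that they were equal. In S, Fads2 was at 915 to 1702 CPM, Fads1 at 352 to 724 CPM, Gnmt at 230 to 771 CPM and Prss35 at 22.4 to 60.3 CPM. S minus NS was -0.25 (SE 0.18) for Fads2, 0.02 (SE 0.20) for Fads1, -0.38 (SE 0.60) for Prss35, 0.01 (SE 0.25) for Zmym3, -0.06 (SE 0.36) for Gse1, -0.16 (SE 0.26) for Lrfn3, -0.10 (SE 0.37) for Gnmt and 0.52 (SE 0.34) for Cox7a1. For Myrip it was 2.64 (SE 0.67, adjusted p = 0.289), and S animals ran from 0.487 to 13.5 CPM, across the range of both other groups. The S vs C log2 fold change of Gnmt was -2.29 and that of Myrip -0.98 (adjusted p = 0.305), both against the C animals used above. Amino acid catabolism had a median of -0.45 in S vs C, fatty acid synthesis 0.55, methionine metabolism -0.20 and mitosis 1.69, beside -0.38, 0.37, -0.19 and -0.03 in NS vs C. These comparisons share their controls and sex differs between S and NS, so the values stand side by side only.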

How the data were processed

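Liver RNA of 16 deer mice was sequenced as paired reads from a strand-keeping library kit. The authors aligned reads to HU_Pman_2.1 (STAR 2.7.2) and used featureCounts on those with a unique position. What they deposited are raw counts of 16910 genes, of which 2251 were 0 in every animal. The strand setting of the counting and the way genes received symbols are not given in the sources used here, so overlapping and antisense genes may share reads.

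Groups came from the sample labels. The filter asked for 0.5 CPM or more in 1 or more of the 16 animals and left 12639 genes. All 16 animals entered a single fit, so that C, NS and S shared 1 estimate of the spread, by edgeR 4.0.16 (quasi-likelihood test, TMM normalization, R 4.3.3). Calls needed a fold change of 2 or more and, after Benjamini-Hochberg adjustment, p under 0.1, as in the study. The SE was derived from the F statistic. Per-animal log2 values used log2(CPM + 0.5), and a level of 3 counts or fewer was taken as the floor. Exact two-sided permutation tests covered all assignments of the 11 animals. Nothing in the labels says that animals shared a litter, and total counts of 6374518 to 11349971 limit what can be seen in genes of low level.

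The text names the called genes and, per gene list, the called members, anchors set for the list and the 2 members of smallest unadjusted p-value, and the 12 genes of the cytokine panel. Other genes were named after their values were seen, also where this is not said, as for Elovl2, Bcat2 and Ethe1. The comparison, the gene lists and the tests were chosen with earlier results of these data known. Lists are described by counts and medians and carry no test of their own. Alternatives covered normalization, filters, DESeq2 1.42.0, stock, sex, the samples in the fit and leaving out each animal. A fit with a stock by group interaction was added after seeing the data. The fit was also run on simulated counts with set changes. These held no difference between stocks and no animal set apart, so the weight of either in the calls was not tested there. Figures were drawn with matplotlib 3.10.9. Body weight, histology, gene coordination and other enrichment were not analysed here, and no sequence is shown. Results of some genes are not reported here.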

Additional observations from a re-analysis of the deposited data

Results flagged for a closer look

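The highest or the lowest animal of a group was compared with the rest for 95 genes of the text, as the gap to the nearest other animal divided by the group's range on the log2 scale. It passed Dixon's 95% critical value in 16 of 190 groups, and chance alone flags about 1 in 20. C animal 10876, which is SM2, stood apart in Fads1 (0.632, at 258 CPM against 153 to 185 CPM), in Zfp541 (0.657) and, lowest, in Ces1f (0.671) and Nqo1 (0.7415). NS animal 10865, the other SM2 animal, was highest in Tpx2 (0.822) and lowest in Nqo1 (0.862) and in Apob (0.715, at 5621 CPM against 8079 to 9335 CPM). C animal 35972 was lowest in Gpd1 (0.755), and C animal 36007 was highest in Apoa4 (0.738) and Cidec (0.6254). NS animal 35937 was lowest in Pcca (0.714) and highest in Hspa5 (0.74, at 1933 CPM against 750 to 959 CPM). NS animal 35987 was lowest in Dgat2 (0.716) and highest in Fadd (0.711). In Aox2 (1.0) and Slc4a1 (1.0) a single C animal had a count and the others were at 0.

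The difference between S and NS passed the test in Ugt2a3, with a log2 fold change of -3.479 for S minus NS (SE 0.45, adjusted p = 0.00651 by edgeR). NS animal 10865 was nearest to S, at 102 CPM, and the other NS animals were at 319 to 764 CPM.

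In 5 genes the NS minus C difference of the SM2 pair departed from that of the BW animals, by an interaction test in edgeR added after the data were seen. With 1 SM2 animal a group, assumed to vary like the others, stock cannot be told apart from what is particular to animals 10865 and 10876. Nqo1, a quinone reductase induced by NRF2, differed by -3.509 on the log2 scale between SM2 and BW (SE 0.46, adjusted p = 0.0106), with 52.5 CPM in C animal 10876 and 3.66 CPM in NS animal 10865, against 173 to 261 CPM in C and 129 to 225 CPM in NS of the BW stock. Nqo2, its relative, differed by -4.08 (adjusted p = 0.00175), with 76.8 and 4.29 CPM in the SM2 pair and 44.4 to 72.1 and 50.2 to 61.2 CPM in BW animals of C and NS. Usp25, a deubiquitinase, differed by -2.542 (adjusted p = 0.0311), with 162 and 28.6 CPM in the SM2 pair. Ccdc190 (8.173, adjusted p = 0.0190) and Slc22a14 (7.931, adjusted p = 0.0472) went the other way, and since the SM2 animal of C was at or near 0 these fitted values depend on the prior count.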

How the results depend on the processing

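The 9 called genes kept their direction in all 22 alternative fits, and Fads2 and Fads1 were called in all 22, with log2 fold changes of 1.39 to 1.58 and 1.56 to 1.73. Prss35 was called in 20, Cox7a1 and Gnmt in 18, Myrip in 13, Zmym3 in 11, and Lrfn3 and Gse1 in 9. With 6 genes higher and 3 lower as reported, DESeq2 called 31 higher and 22 lower, including all 9, with 2586 adjusted p-values not given. Stock as a covariate gave 16 higher and 13 lower, the fit of only NS and C animals 5 lower, BW animals of all groups 6 lower and BW animals of NS and C 8 lower. At an adjusted p-value under 0.05, 3 genes were higher. Leaving out each animal in turn gave 2 to 15 genes higher and 0 to 14 lower, and the causes were not tested. RLE and upper-quartile normalization and robust dispersion gave 6 higher and 3 lower. Ces1f and Ugt2a2 were called with stock as a covariate and by DESeq2. Of the 46 list medians, 19 changed sign and 21 moved by over 1.5 times in at least 1 alternative. The other 6 were fatty acid synthesis (0.31 to 0.48), amino acid catabolism (-0.44 to -0.33), bile acids, detoxification families, NRF2 targets and periportal genes. No paired analysis was possible because the labels name no pairs of animals across the groups. With 5 and 6 outbred animals, and 1 SM2 animal in each group, differences near 2-fold in variable genes lie at the edge of what could be called.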

Other observations

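Outside every gene list, 22 genes differed by at least 2-fold in the fit with no overlap between C and NS, 10 higher and 12 lower, of 35 such genes in all. They were chosen after their values were seen, and the ones described next were not called in the fit of all animals. Over all genes, at any fold, 0.562% lay above and 0.427% below without overlap. Of the 22, Edaradd, Ppp1r3e and Prss53 were at the floor of 3 counts or fewer in C, in NS or in both, and get no fold. With stock as a covariate Crem and Thbd were called, by DESeq2 Crem, Thbd and Alpl, and in NS and C animals only Crem. Crem, a transcription factor of cyclic AMP signalling, was at 126 to 242 CPM in C and 52.3 to 110 CPM in NS (log2 fold change -1.17, SE 0.26, adjusted p = 0.146). Alpl, the tissue-nonspecific alkaline phosphatase, was at 17.8 to 65.8 CPM in C and 0.592 to 13.6 CPM in NS (log2 fold change -2.86, SE 0.84, adjusted p = 0.395). Slc2a5, the fructose transporter, was at 0.156 to 8.88 CPM in C and 11.1 to 37.0 CPM in NS (log2 fold change 2.04, SE 0.86, adjusted p = 0.588). Thbd, thrombomodulin of endothelium, was at 4.19 to 7.54 CPM in C and 1.39 to 3.53 CPM in NS (log2 fold change -1.16, SE 0.30, adjusted p = 0.276).

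The spread among animals was close in both groups. Over 8084 genes with a mean of at least 5 CPM, the median SD of log2(CPM + 0.5) was 0.286 in C and 0.314 in NS, and 58.8% of these genes had the larger SD in NS.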
